A study of Mus musculus with 25 samples.

Results

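The 10 genes described here, Nos2, Arg1, Mrc1, Retnla, Spp1, Trem2, Gpnmb, Apoe, Fabp5 and Folr2, are widely used to describe the activation state of macrophages in tumours. They were taken by gene symbol from a table of 24984 genes, all 10 were found, and their levels were followed in 25 libraries, chiefly in the 8 libraries of stromal cells that were sorted from the tumours of 4 mice at 2 sites, liver and peritoneum. RNA sequencing counts the reads of each gene, and a level is given as CPM, a count scaled to the size of the library (with TMM factors), which allows a gene to be compared between libraries but not with another gene.

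Macrophages take on different programmes according to the signals around them. Interferon and microbial products induce Nos2, which makes nitric oxide from arginine, whereas interleukin 4 and interleukin 13 induce, in the mouse, Arg1, which splits arginine into ornithine and urea, the mannose receptor Mrc1 and the secreted protein Retnla. Macrophages that take up lipid and dying cells in tumours and in injured liver are known for Trem2, a lipid-sensing receptor, Gpnmb, a glycoprotein of the lysosome and the cell surface, the lipoprotein Apoe, the fatty acid carrier Fabp5 and the secreted matrix protein Spp1 (osteopontin). Folr2, a folate receptor, marks a resident-type population in many tissues, and the liver has a resident macrophage of its own, the Kupffer cell.

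The cultured samples were 3 cultures each of 3 populations of one clonally derived line of bipotential mouse embryonic liver (BMEL) cells, isolated from C57BL/6 x C3H embryos. They were BMEL WT, which the labels describe as carrying an empty vector, and RasLOW and RasHIGH cells, which carry an activated human H-Ras and a fluorescent protein from a lentiviral vector and were sorted for low or high fluorescence. All 9 cultures grew exponentially on collagen-coated plates. Tumours were grown by injecting Ras-expressing BMEL cells into the liver of athymic nude mice (Crl:NU(NCr)-Foxn1nu), which lack T cells but keep macrophages and natural killer cells. The age of the mice, and which Ras population gave rise to the sequenced tumours, are not given in the sources used here. From each of 4 mice, fluorescent tumour cells and non-fluorescent stromal cells were sorted from the liver tumour and from the peritoneal tumour, so that the 4 groups of 4 libraries came from the same animals. No marker of macrophages was used in the sort, so the stromal libraries mix every host cell type of the tumour. In such a bulk library, fewer cells of a type and less RNA per cell cannot be told apart.

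The labels were checked on marker genes. In the stromal libraries 10 genes common to macrophages (such as Adgre1, Csf1r, Cd68 and C1qa), called macrophage core genes below, summed to between 5047 and 5966 CPM in the liver and between 3217 and 5547 CPM in the peritoneum. In the tumour cell libraries their sum was between 0.445% and 3.69% of that in the stroma of the same tumour, and in the cultured cells it was between 6.82 and 13.6 CPM. The keratin genes Krt8, Krt18 and Krt19 marked the tumour cells, as did Cdh1 and Sox9. Epcam, another epithelial marker, averaged only 0.0676 CPM in liver and 0.0490 CPM in peritoneal tumour cells, below its 5.61 and 4.37 CPM in the stroma. Krt7, a further keratin, was in tumour cells at between 14.6% and 61.5% of the matched stroma in the liver and between 28.8% and 149% in the peritoneum. Cldn4 was at between 14.5% and 69.1% in the liver and between 92.4% and 1504% in the peritoneum. The sum of Krt8, Krt18 and Krt19 in a stromal library came to between 6.02% and 15.3% of the tumour cells' sum. The Kupffer cell gene Clec4f averaged 112 CPM in the liver stroma and had no count in the peritoneal stroma. Total counts ran from 20818989 to 51241336 per library.

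2 libraries stood apart, both from the peritoneal tumour of mouse 1. Its tumour cell library held 200.7 CPM of macrophage core genes, where the other 3 peritoneal tumour cell libraries held between 24.7 and 34.8 CPM. Its stromal library held 4319 CPM of 10 neutrophil genes, where the other 3 held between 771 and 798 CPM. For the 10 genes, results that rest on these libraries are given with and without them. Single genes of the other lists are given with them only.

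**Figure D1:**
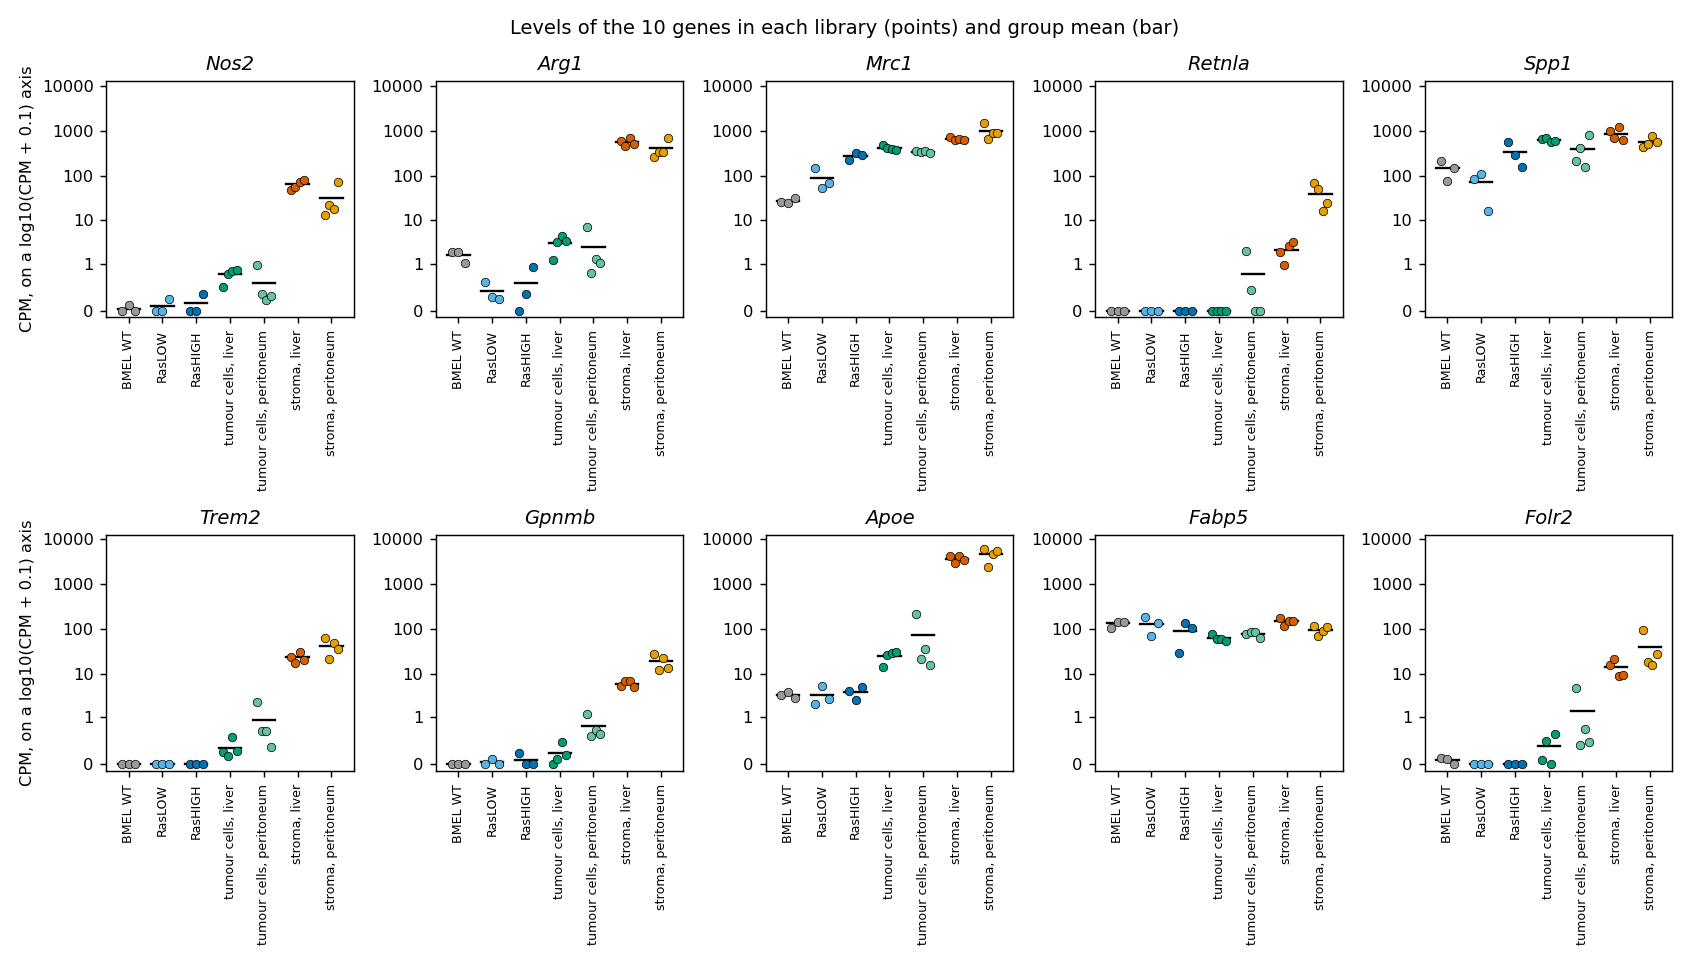
Level of each of the 10 genes in all 25 libraries (points, CPM, on a log10 axis of CPM plus 0.1), by group, with the group mean as a bar. Nos2, Arg1, Trem2, Gpnmb, Apoe and Folr2 were higher in both stromal groups than elsewhere. Retnla was so in the peritoneal stroma only (mean 39.5 CPM, against 2.16 CPM in the liver stroma). Mrc1, Spp1 and Fabp5 were also present in cultured and tumour cells, and the mean of Mrc1 was 27.4 CPM for BMEL WT and 278 CPM for RasHIGH.

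The first comparison asked whether the 10 genes differed between the stroma of the liver tumours and the stroma of the peritoneal tumours. 4 genes were higher in the peritoneum, namely Retnla by 19.0-fold, Gpnmb by 3.301-fold, Trem2 by 1.87-fold and Mrc1 by 1.56-fold. 1 gene, Fabp5, was higher in the liver, by 1.49-fold. These 5 of the 10 genes passed an adjusted p of 0.05 in edgeR's quasi-likelihood test, as did 33.4% of the 14755 genes tested. Of all genes tested, 18.5% were called higher in the peritoneum and 14.9% higher in the liver. The 2 groups of libraries did not overlap for 3 of the 10 genes (Retnla, Gpnmb and Fabp5), and they did not overlap for 34.9% of all genes tested. The median log2 fold change (liver minus peritoneum) was -0.51 over the 10 genes and 0.018 over all genes tested. With the mouse entered as a block, the same 5 genes were called together with Nos2 and Spp1, as were 5615 of the 14755 genes tested.

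Neither of the 2 enzymes that compete for arginine was called between the sites in the test of the 2 groups alone. Nos2, which lies on chromosome 11 (chr11:78734289-78773756, plus strand, mouse build mm9), was at 48.0, 56.02, 70.1 and 81.3 CPM in the liver stroma of mice 1 to 4. It was at 13.1, 21.6, 17.8 and 72.9 CPM in their peritoneal stroma. The level was higher in the liver in each of the 4 mice, but the peritoneal library of mouse 4 lay within the range of the liver libraries. The site difference, liver minus peritoneum on the log2 scale, was 0.98 (SE 0.48, adjusted p = 0.149). Nos2 was called with the mouse as a block, at 1.29 (SE 0.31, adjusted p = 0.0184), with the sequencing lane as a term, at 1.38 (SE 0.31, adjusted p = 0.0130), and at 1.80 (adjusted p = 0.000481) without the peritoneal library of mouse 4.

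Arg1 (chr10:24635014-24647276, minus strand, mm9) was among the more abundant of the 10 genes. It was at 575, 458, 694 and 508 CPM in the liver stroma and at 260.1, 340, 336 and 667 CPM in the peritoneal stroma of mice 1 to 4. The level was higher in the liver in mice 1, 2 and 3 and lower in mouse 4. Liver minus peritoneum, the log2 fold change was 0.43 (SE 0.27, adjusted p = 0.250), and Arg1 was not called with the mouse as a block (0.52, adjusted p = 0.164). On leaving out 1 library it ran from 0.26 (adjusted p = 0.478, without the peritoneal library of mouse 1) to 0.77 (adjusted p = 0.00790, without that of mouse 4). In the peritoneal library of mouse 4 both Nos2 and Arg1 had their highest peritoneal level.

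Mrc1 and Retnla, of the interleukin 4 programme, were higher in the peritoneum. Mrc1 (chr2:14151041-14253684, plus strand, mm9, with the microRNA gene Mir511 inside it on the same strand) encodes the mannose receptor CD206, which takes up glycoproteins. Its level was 703, 617, 643 and 609 CPM in the liver stroma and 1479, 643, 869 and 887 CPM in the peritoneal stroma. Each mouse had more in the peritoneum, with the peritoneal library of mouse 1 the highest, and mouse 2 differed little. Between the sites, the log2 fold change was -0.64 (SE 0.22, adjusted p = 0.0458), and leaving out the peritoneal library of mouse 1 gave -0.38 (adjusted p = 0.0462). The call was lost without any 1 of the 4 liver libraries or without the peritoneal library of mouse 3 or 4 (adjusted p up to 0.106).

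Retnla (chr16:48842665-48844574, plus strand, mm9) encodes the secreted protein RELMalpha, also called Fizz1. It was at 1.86, 0.912, 2.66 and 3.21 CPM in the liver stroma of mice 1 to 4 and at 67.3, 50.4, 15.9 and 24.4 CPM in their peritoneal stroma. Every peritoneal library lay above every liver library. On the log2 scale the difference between the sites was -4.25 (SE 0.52, adjusted p = 0.000242), and it stayed between -4.52 and -3.88 when any 1 library was left out. Libraries of both sites were spread over 3 sequencing lanes, and within lanes the difference of the mean log2(CPM + 1) values was -4.87 in lane 1, -3.01 in lane 2 and -2.59 in lane 3.

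Fibroblast genes moved with the site in the same direction as Retnla. The 8 genes of the fibroblast list (among them Col1a1, Col3a1, Pdgfra and Postn) summed to between 4126 and 8361 CPM in the liver stroma and to between 54717 and 83133 CPM in the peritoneal stroma. All 8 were called higher in the peritoneum, with a median log2 fold change of -3.45. Among the 4 peritoneal libraries, that of mouse 1 had the most Retnla and the lowest fibroblast sum. The part of fibroblast RNA in the Retnla difference was not tested.

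The lipid and lysosome genes split between the sites. Trem2 (chr17:48485726-48493472, plus strand, mm9) was at 24.5, 18.1, 31.0 and 20.7 CPM in the liver and at 63.6, 21.5, 50.3 and 35.7 CPM in the peritoneum. It was higher in the peritoneum in each of the 4 mice, and the peritoneal library of mouse 2 lay within the liver range. The site difference, liver minus peritoneum on the log2 scale, was -0.91 (SE 0.30, adjusted p = 0.0399). Without the peritoneal library of mouse 1 it was -0.67 (adjusted p = 0.0880), and the call was lost without any of 4 other libraries as well, namely the peritoneal library of mouse 3 and the liver libraries of mice 1, 2 and 4 (adjusted p up to 0.0983). With the sequencing lane as a term the adjusted p was 0.0611.

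Gpnmb (chr6:48986517-49020928, plus strand, mm9) was at 5.51, 6.84, 6.93 and 5.04 CPM in the liver and at 28.8, 12.1, 23.0 and 13.9 CPM in the peritoneum. The liver libraries were close to each other and all lay below the lowest peritoneal library. Liver minus peritoneum, the log2 fold change was -1.72 (SE 0.27, adjusted p = 0.00105), and it stayed between -1.90 and -1.49 when any 1 library was left out.

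Apoe (chr7:20281458-20284515, minus strand, mm9) carries cholesterol and other lipids out of cells. It had the highest level per length of the 10 genes in both stromal groups, with means of 2665 CPM per kilobase of transcript in the liver and 3375 in the peritoneum. Its CPM values were 4182, 2985, 4234 and 3372 in the liver and 6180.5, 2387, 4583 and 5559 in the peritoneum. The peritoneal libraries included both the lowest and the highest of the 8 values, and 3 of the 4 mice had more in the peritoneum. Between the sites, the log2 fold change was -0.39 (SE 0.26, adjusted p = 0.285), and on leaving out 1 library it ran from -0.24 (adjusted p = 0.527, without the peritoneal library of mouse 1) to -0.61 (adjusted p = 0.0226, without that of mouse 2).

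Fabp5 (chr3:10012548-10016607, plus strand, mm9) was at 174, 117, 156 and 156 CPM in the liver and at 117, 70.9, 93.5 and 111 CPM in the peritoneum. Each mouse had more in the liver, although the lowest liver value exceeded the highest peritoneal value only slightly. On the log2 scale the difference between the sites was 0.57 (SE 0.17, adjusted p = 0.0252), and the adjusted p was between 0.0134 and 0.0672 when any 1 library was left out. The call was lost without the liver library of mouse 1, 3 or 4 or the peritoneal library of mouse 2 or 3. Mice carry near-identical pseudogene copies of Fabp5, so its counts are uncertain to the extent that reads were shared among them.

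Spp1 (chr5:104864137-104870069, plus strand, mm9) binds integrins and CD44. It was at 967, 674, 1187 and 606 CPM in the liver and at 439, 497, 766 and 548 CPM in the peritoneum. Each of the 4 mice had more in the liver, while the 2 groups overlapped. The site difference, liver minus peritoneum on the log2 scale, was 0.56 (SE 0.23, adjusted p = 0.0939), and with the mouse as a block it was 0.54 (SE 0.16, adjusted p = 0.0377).

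Folr2 (chr7:108988512-108993831, minus strand, mm9) varied widely between mice. It was at 16.2, 21.6, 9.16 and 9.72 CPM in the liver and at 95.5, 18.8, 15.8 and 28.3 CPM in the peritoneum. The peritoneal library of mouse 1 held several times the level of any other, and mouse 2 had slightly more in the liver. Liver minus peritoneum, the log2 fold change was -1.52 (SE 0.56, adjusted p = 0.0633), and without that library it was -0.63 (adjusted p = 0.168). With the lane as a term the log2 fold change was -1.68 (adjusted p = 0.00196), and with the mouse as a block it was -1.24 (adjusted p = 0.0640).

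**Figure D2:**
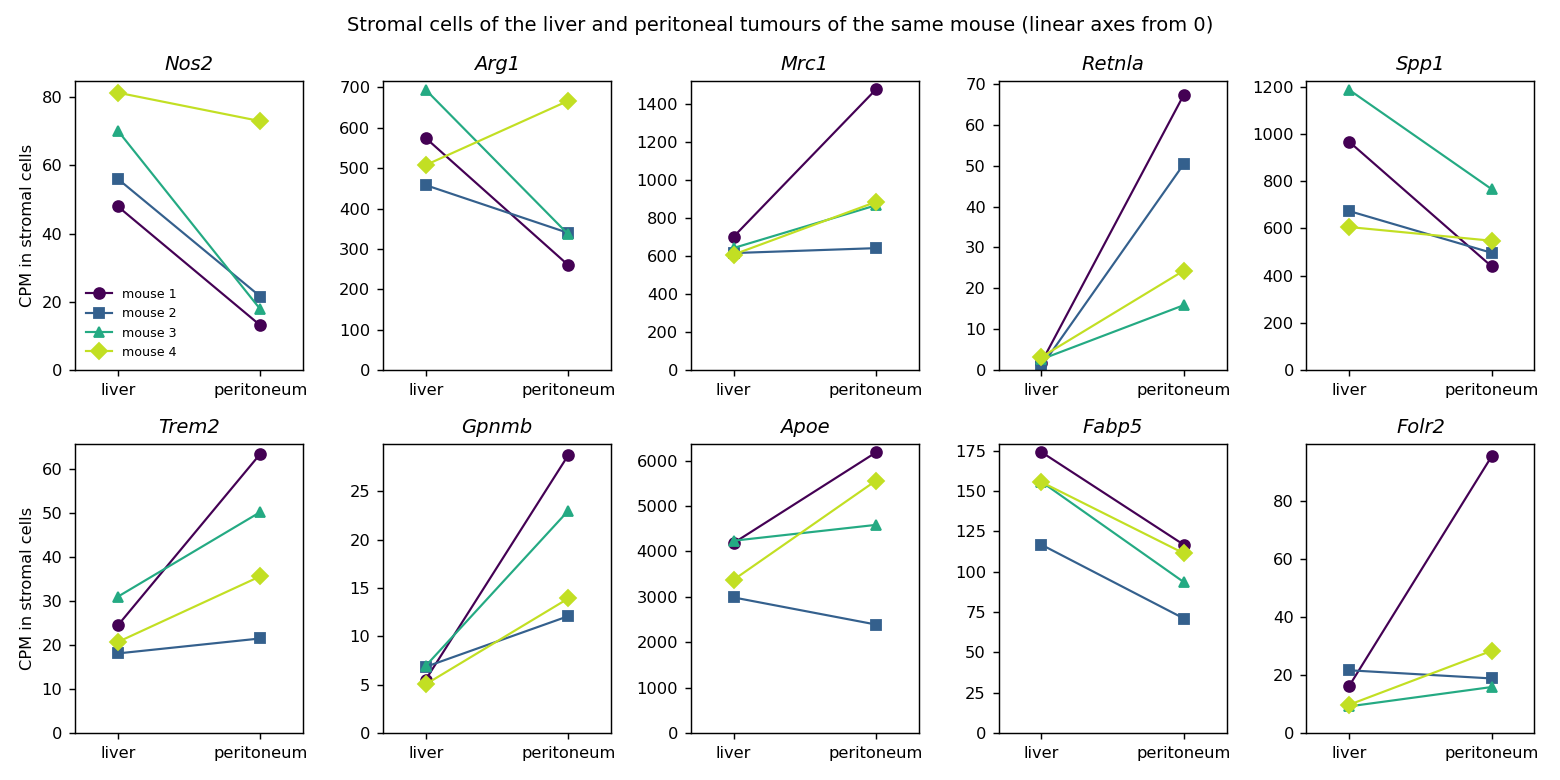
Stromal CPM at both sites of each mouse, 1 line per mouse, on linear axes that start at 0. Retnla, Gpnmb, Trem2 and Mrc1 went up from liver to peritoneum in all 4 mice and Nos2, Spp1 and Fabp5 went down in all 4, and mouse 1 had the highest peritoneal value of Folr2 (95.5 CPM).

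Macrophage genes common to all programmes were compared between the sites too. Of the 10 macrophage core genes, 3 were called higher in the liver and none higher in the peritoneum, with a median log2 fold change of 0.27. When the libraries were scaled to these genes instead of to all genes, the median of all genes shifted by -0.23 on the log2 scale and calls higher in the liver fell from 44.7% to 17.1% of all calls. On that scale Retnla was at -4.52, Gpnmb at -1.89, Trem2 at -1.06 and Mrc1 at -0.80. Folr2 (-1.61, adjusted p = 0.000878) and Apoe (-0.53, adjusted p = 0.0338) were then called, and Fabp5 (0.39, adjusted p = 0.242) was not. No gene of the 10 changed its direction.

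**Figure D3:**
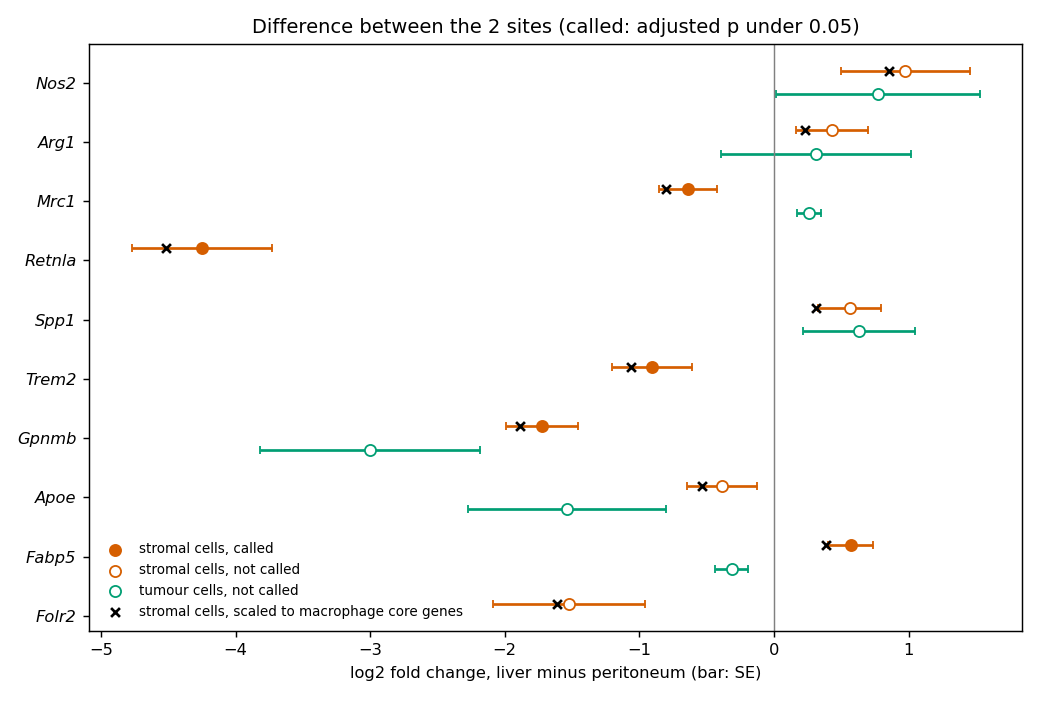
Log2 fold change between liver and peritoneum for each gene in stromal cells (orange) and in tumour cells (green), with the SE as a bar, filled where the adjusted p was under 0.05, and crosses for stromal cells scaled to the macrophage core genes. In stromal cells Retnla lay farthest from 0 at -4.25, and the crosses kept the sign of each gene.

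The genes called higher in the peritoneum were compared at the start of the gene, since these 4 moved in the same direction. RefSeq gives 1 promoter window (250 bases before the start of the gene to 50 after it, build GRCm38.p6) for each of them. 4 motifs were searched on both strands. TTCNNNGAA is a palindrome bound by STAT factors, and CACGTG is the E-box bound by factors such as Mitf and Tfe3. TGANTCA is a loose form of the AP-1 motif TGACTCA or TGAGTCA, with any base in the middle. GAGGAA is the motif of the macrophage factor PU.1. Matches are in capitals in the sequences, which are given in the direction of the gene.

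Retnla, chr16:48842359-48842658, plus strand: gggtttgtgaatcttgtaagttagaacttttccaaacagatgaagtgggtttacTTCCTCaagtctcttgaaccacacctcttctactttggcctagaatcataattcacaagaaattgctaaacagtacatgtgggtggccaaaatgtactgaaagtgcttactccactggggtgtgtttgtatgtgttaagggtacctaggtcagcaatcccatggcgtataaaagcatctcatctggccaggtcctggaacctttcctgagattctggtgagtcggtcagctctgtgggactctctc

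Mrc1, chr2:14229164-14229463, plus strand: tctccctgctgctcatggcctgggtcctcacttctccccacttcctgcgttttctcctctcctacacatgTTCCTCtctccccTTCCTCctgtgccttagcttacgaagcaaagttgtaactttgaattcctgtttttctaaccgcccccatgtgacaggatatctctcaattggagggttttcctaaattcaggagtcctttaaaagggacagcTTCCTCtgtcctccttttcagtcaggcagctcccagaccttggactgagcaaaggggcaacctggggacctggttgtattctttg

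Trem2, chr17:48346151-48346450, plus strand: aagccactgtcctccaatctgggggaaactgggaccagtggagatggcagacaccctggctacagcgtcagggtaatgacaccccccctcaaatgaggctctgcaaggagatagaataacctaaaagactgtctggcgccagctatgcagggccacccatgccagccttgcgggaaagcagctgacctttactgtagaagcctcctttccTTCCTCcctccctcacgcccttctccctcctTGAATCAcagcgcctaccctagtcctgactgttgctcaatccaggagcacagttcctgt

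Gpnmb, chr6:49036268-49036567, plus strand: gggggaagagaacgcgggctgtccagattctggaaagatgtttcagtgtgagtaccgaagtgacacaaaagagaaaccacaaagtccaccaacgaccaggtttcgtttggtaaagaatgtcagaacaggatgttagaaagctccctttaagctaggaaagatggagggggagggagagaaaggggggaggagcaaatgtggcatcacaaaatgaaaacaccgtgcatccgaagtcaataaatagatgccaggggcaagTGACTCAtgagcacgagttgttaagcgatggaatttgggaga

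GAGGAA or its reverse complement lay in the windows of Retnla (beginning 196 bases before the start), Mrc1 (180, 167 and 35 bases before) and Trem2 (40 bases before), and 28.3% of 32851 promoter windows held it. TGANTCA lay in the windows of Trem2 and Gpnmb, and 7.81% of all windows held it. The match was TGACTCA in Gpnmb, but TGAATCA in Trem2, which is not the AP-1 motif itself. None of the 4 windows held TTCNNNGAA (8.30% of all windows) or CACGTG (7.15%). Other spacings between TTC and GAA were not searched, so STAT sites of another spacing would have been missed. The Retnla window holds such a spacing, ttcacaagaa. The other windows were not searched for it, and its share of all windows was not counted, so it cannot be called particular to Retnla. Of the other 6 genes, Spp1, Apoe and Folr2 had windows in the same table, and none of their windows held TTCNNNGAA or CACGTG either, while GAGGAA lay in windows of Spp1 and Apoe and TGANTCA in a window of Folr2.

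The second comparison set stromal cells against tumour cells of the same tumours, which shows whether a gene belonged to the host fraction. In the liver all 10 genes were higher in the stroma, and 39.4% of the 14620 genes tested were called higher in the stroma (77.8% in either direction). In the peritoneum 8 of the 10 were higher in the stroma, against 37.1% of the 14584 genes tested (76.6% in either direction), and Spp1 and Fabp5 were not called. Spp1 differed little in the liver (log2 fold change 0.51, SE 0.19, adjusted p = 0.0266), and its call was lost without any of 4 libraries (liver stroma of mouse 1 or 3, liver tumour cells of mouse 3 or 4, adjusted p up to 0.0906) and with all 25 libraries in 1 fit (adjusted p = 0.359). Nos2, Arg1, Retnla, Trem2, Gpnmb, Apoe and Folr2 were low in the tumour cells. 3 of these 7 (Retnla, Trem2 and Folr2) had too few counts to be tested among tumour cells alone. They entered these tests through their stromal libraries. So did Gpnmb in the liver, with 0, 1, 7 and 2 counts in the tumour cell libraries of mice 1 to 4. Nos2 did so in the peritoneum, with 30, 5, 4 and 3 counts.

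For those 7 genes the tumour cells held a small share of the stromal level. Nos2 was 123-fold higher in liver stroma than in liver tumour cells, Arg1 184-fold, Trem2 176-fold, Apoe 148-fold, Folr2 95.004-fold and Gpnmb 83.1-fold. Retnla had no count in any liver tumour cell library, and taken against the level of 3 counts in the shallowest of these libraries the liver stroma was at least 22.5-fold higher. In liver tumour cells Nos2 was at between 0.476% and 1.01% of the matched stroma, and Arg1 at between 0.214% and 0.716%. Trem2 was at between 0.312% and 0.976% and Apoe at between 0.352% and 0.908%. Gpnmb was at between 0% and 3.06% and Folr2 at between 0% and 3.95%, both on few tumour-cell counts. The macrophage core genes were at between 0.606% and 0.961%.

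The peritoneal tumour cell library of mouse 1 stood apart for 6 of these 7 genes. It held 218 CPM of Apoe, where the other 3 held between 16.1 and 35.6 CPM. It held 6.99 CPM of Arg1 and 2.31 CPM of Trem2, where the others reached 1.32 and 0.462 CPM. Macrophage core genes in this library were at 3.69% of the matched stroma. The 7 genes were at unlike shares, namely Nos2 at 7.14%, Folr2 at 5.00%, Gpnmb at 4.23% and Trem2 at 3.63%. Apoe was at 3.53%, Retnla at 2.97% and Arg1 at 2.69%. In the peritoneum the log2 fold change of stroma over tumour cells was 6.64 for Nos2, 7.28 for Arg1, 5.94 for Apoe, 5.61 for Trem2, 4.96 for Gpnmb, 4.77 for Folr2 and 6.18 for Retnla. Without this library these values were higher, at 8.20 for Nos2, 8.66 for Arg1, 7.60 for Apoe, 6.82 for Trem2, 5.61 for Gpnmb, 6.96 for Folr2 and 9.27 for Retnla.

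3 genes did not follow this pattern. Mrc1 in tumour cells was at between 60.7% and 67.0% of the matched stroma in the liver and between 24.1% and 51.7% in the peritoneum. Spp1 was at between 46.5% and 101% in the liver and between 20.2% and 147% in the peritoneum. Fabp5 was at between 36.1% and 53.1% in the liver and between 58.8% and 125% in the peritoneum. For these 3 genes the share in tumour cells was many times that of the macrophage core genes in every tumour.

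**Figure D4:**
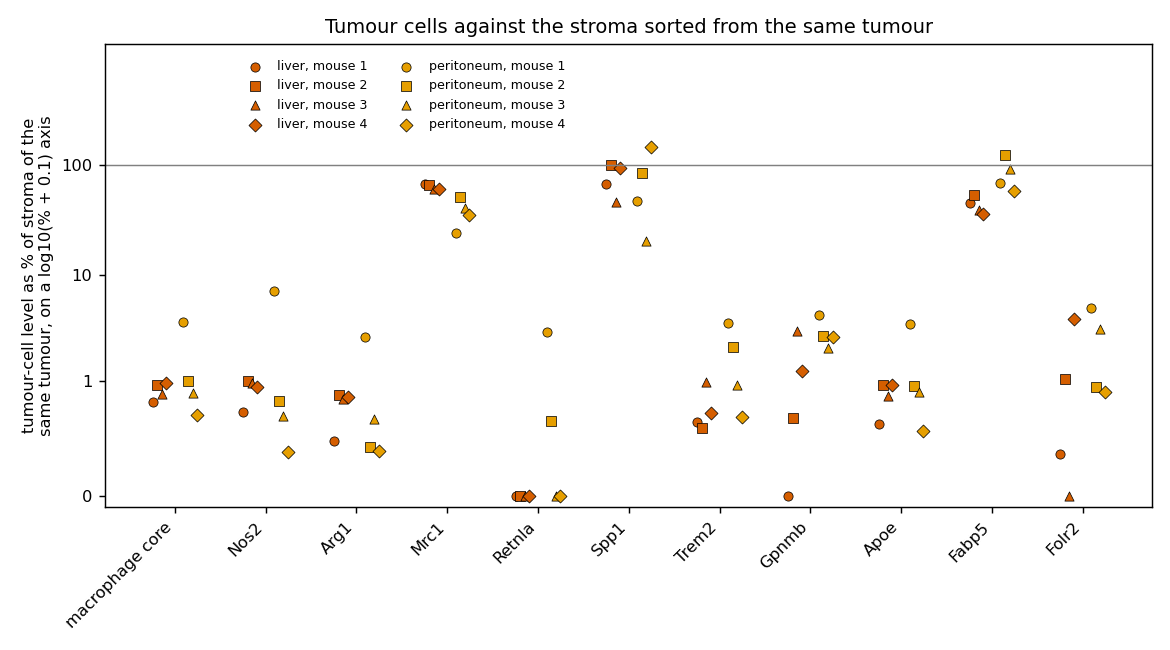
Level in tumour cells as a percentage of the level in stromal cells of the same tumour, on a log10 axis of the percentage plus 0.1, for the summed macrophage core genes and each of the 10 genes, 1 point per mouse and site. The macrophage core genes were between 0.445% and 3.69%, whereas Mrc1, Spp1 and Fabp5 lay above 20% in every tumour.

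The comparison of the sites was repeated for these 3 genes with the tumour-cell share taken out. When the tumour-cell counts of the same tumour, scaled by the keratin share, were subtracted from each stromal library, the log2 fold change between the sites became -0.73 for Mrc1 (adjusted p = 0.0289), 0.50 for Spp1 (adjusted p = 0.177) and 0.57 for Fabp5 (adjusted p = 0.0305). Mrc1 was then at between 552 and 639 CPM in the liver stroma and at between 623 and 1452 CPM in the peritoneal stroma. This subtraction was added after the data had been seen. Its keratin share came from Krt8, Krt18 and Krt19 only, and it takes all of their stromal counts as tumour-cell RNA.

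In tumour cells, none of the 7 genes with enough counts to be tested was called between the sites by edgeR, where 3.2% of the 13074 genes tested were called. DESeq2 also called none of the 7, where it called 1146 of the 13074 genes. Gpnmb was at 0, 0.0283, 0.212 and 0.0640 CPM in liver tumour cells and at 1.22, 0.326, 0.480 and 0.369 CPM in peritoneal tumour cells (log2 fold change -3.00, SE 0.82, adjusted p = 0.0757). The liver libraries held only 0, 1, 7 and 2 counts of Gpnmb, so it entered this test through its peritoneal libraries. The direction was the same as in the stroma. Mrc1 was at 471, 403, 390.4 and 372 CPM in liver tumour cells and at 356, 332, 355 and 315 CPM in peritoneal tumour cells. It was higher in the liver in each of the 4 mice, in the opposite direction to the stroma, with a log2 fold change of 0.26 (SE 0.090, adjusted p = 0.142). Fabp5 was at 79.1, 62.0, 61.1 and 56.1 CPM in liver and at 80.1, 88.4, 85.6 and 65.5 CPM in peritoneal tumour cells (log2 fold change -0.31, SE 0.12, adjusted p = 0.192). It was lower in the liver in each of the 4 mice, also opposite to the stroma.

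Without the peritoneal tumour cell library of mouse 1, 2 genes were called between the sites in tumour cells. They were Nos2 (log2 fold change 2.31, adjusted p = 0.0304) and Arg1 (1.65, adjusted p = 0.0470), both higher in the liver. In this fit 884 of the 13186 genes tested were called. Nos2 had only 5, 4 and 3 counts in the peritoneal libraries of mice 2, 3 and 4, so it entered this test through its liver libraries. The means of Nos2 and Arg1 in liver tumour cells were 0.541 and 3.14 CPM. The macrophage core genes summed to between 36.2 and 52.3 CPM in the 4 liver tumour cell libraries and to between 24.7 and 34.8 CPM in these 3 peritoneal libraries, and their part in these 2 calls was not tested.

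A test of the difference between the 2 site effects (stroma minus tumour cells) was made over all 16 sorted libraries. 2 of the 10 genes passed, against 14.3% of the 15331 genes tested. For Mrc1 the site effect in the stroma was lower than that in tumour cells by 0.82 on the log2 scale (-0.82, SE 0.25, adjusted p = 0.0427), and for Fabp5 it was higher (0.97, SE 0.23, adjusted p = 0.0104). With both peritoneal libraries of mouse 1 left out these values were -0.66 (adjusted p = 0.0129) and 0.96 (adjusted p = 0.0142). The call of Mrc1 was lost on leaving out any 1 of 10 of the 16 libraries, with an adjusted p of at most 0.0859, whereas that of Fabp5 was kept in every such fit. The interaction of Retnla cannot be read, since liver tumour cells held no count of it.

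The cultured cells showed which of the 10 genes the progenitors expressed without any host cell. Mrc1, Spp1 and Fabp5 were counted in all 9 cultures, at between 24.7 and 321 CPM, between 16.05 and 544 CPM and between 29.4 and 187 CPM. Apoe was low, at between 2.08 and 5.48 CPM. Trem2 and Retnla had no count in any of the 9 cultures, while Folr2 had 2 counts in all, Gpnmb 3 and Nos2 6. A count of 0 in 1 cultured library allows a level of up to between 0.0984 and 0.135 CPM, which covers counting error only.

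Mrc1 was lowest in BMEL WT and was called higher in RasLOW and in RasHIGH cells. It was at 25.5, 24.7 and 31.9 CPM in BMEL WT, at 147, 53.3 and 69.7 CPM in RasLOW and at 223, 321 and 289 CPM in RasHIGH cells. The 3 groups did not overlap. The log2 fold change was 1.67 (SE 0.35, adjusted p = 0.0379) when RasLOW was compared with BMEL WT. It was 3.31 (SE 0.20, adjusted p = 0.000201), or 9.90-fold, when RasHIGH was compared with BMEL WT. For RasHIGH against RasLOW it was 1.64 (SE 0.38, adjusted p = 0.179), which edgeR did not call and DESeq2 did (adjusted p = 0.00301). The RasLOW call was lost when any 1 of 4 libraries was left out (BMEL WT 1, 2 or 3, or RasLOW 3), with an adjusted p of up to 0.146.

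The macrophage core genes in the same cultures summed to between 8.37 and 10.7 CPM in BMEL WT, between 6.82 and 7.76 CPM in RasLOW and between 9.26 and 13.6 CPM in RasHIGH cells. Tumour cells held more Mrc1 than RasHIGH cultures on average, at 409 ± 43.2 CPM in the liver and 340 ± 19.8 CPM in the peritoneum (SD, n = 4), against 278 ± 49.9 CPM (SD, n = 3). Cultures and tumours were prepared differently, and this last difference was not tested. The peritoneal tumour cell libraries overlapped the RasHIGH cultures.

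Arg1 was lower in RasLOW cells than in BMEL WT, at a level far below that of the stroma. It was at 1.92, 1.93 and 1.07 CPM in BMEL WT, at 0.324, 0.0984 and 0.0810 CPM in RasLOW, and at 0, 0.129 and 0.812 CPM in RasHIGH cells. With 9, 3 and 2 counts in the RasLOW libraries, Arg1 entered the tests against BMEL WT through the BMEL WT libraries. It had too few counts to be tested in RasHIGH against RasLOW. The log2 fold change was -3.29 (SE 0.60, adjusted p = 0.0253) in RasLOW and -2.44 (SE 0.97, adjusted p = 0.119) in RasHIGH cells against BMEL WT. The RasLOW value was -4.13 to -2.99 when any 1 library was left out, with an adjusted p of up to 0.0962, and the call was lost without any of the same 4 libraries as for Mrc1. Without the RasHIGH library 3 the RasHIGH value was -4.66 (adjusted p = 0.0200).

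Spp1 varied widely between cultures of the same population. It was at 212, 75.6 and 149 CPM in BMEL WT, at 85.0, 109.6 and 16.05 CPM in RasLOW and at 544, 287 and 157 CPM in RasHIGH cells. RasHIGH lay above RasLOW in every library, with a log2 fold change of 2.22 (SE 0.72, adjusted p = 0.339) that edgeR did not call and DESeq2 did (adjusted p = 0.0225). Fabp5 overlapped between all 3 populations, with means of 135 ± 22.2, 131 ± 58.9 and 92.8 ± 57.2 CPM (SD, n = 3).

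Counted over the 10 genes, 2 of the 5 tested were called in RasLOW against BMEL WT, where 5.96% of the 12307 genes tested were. They were Mrc1 and Arg1, and Arg1 had enough counts only in BMEL WT. 1 of 5 was called in RasHIGH against BMEL WT (Mrc1), where 22.6% of the 12331 genes tested were. None of 4 was called by edgeR in RasHIGH against RasLOW, where 0.0752% of the 11962 genes tested were. DESeq2 called 2 of the 4 (Mrc1 and Spp1), and it called 419 of the 11962 genes.

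The order of the mean levels set the genes apart by source. For Nos2, Arg1, Trem2, Apoe and Folr2 both stromal groups lay above every tumour cell and cultured library, and the 2 stromal groups overlapped each other. For Retnla and Gpnmb the peritoneal stroma lay above the liver stroma without overlap, and the liver stroma overlapped peritoneal tumour cells for Retnla but not for Gpnmb. For Mrc1 the order was peritoneal stroma, liver stroma, liver tumour cells, peritoneal tumour cells, RasHIGH, RasLOW and BMEL WT, with overlap only between the 2 stromal groups and between peritoneal tumour cells and RasHIGH cells. For Spp1 and Fabp5 each group overlapped its neighbours in the order.

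Per kilobase of transcript the 10 genes could be set beside each other, with the length of a single annotated transcript taken for each gene. For some genes all annotated exons together were longer. They came to 3567 bases against 987 for Fabp5, 4946 against 1088 for Trem2 and 5947 against 5352 for Mrc1. The order below, such as that of Fabp5 and Mrc1, therefore rests on the transcript taken. In the liver stroma the order was Apoe (2665 CPM per kilobase), Spp1 (609), Arg1 (379), Fabp5 (153) and Mrc1 (120.1), and Gpnmb was the lowest (1.60). In the peritoneal stroma Mrc1 (181) lay above Fabp5 (99.4), and Retnla moved from 3.62 to 66.1 CPM per kilobase. In RasHIGH cells Spp1 (234), Fabp5 (94.0) and Mrc1 (51.9) were the 3 highest, followed by Apoe at 2.88.

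Other genes of the same programmes were read from lists chosen for their known roles, in the stroma of the 2 sites. Each count below stands beside 14.9% of all genes tested called higher in the liver and 18.5% called higher in the peritoneum. Of 20 pro-inflammatory genes tested, 7 were called, a share near the 33.4% of all genes, and all 7 were higher in the liver, with a median log2 fold change of 0.61, against 0.018 over all genes. Among these were Gbp2, an interferon-induced GTPase (166 ± 49.8 CPM in the liver and 79.7 ± 25.6 CPM in the peritoneum, SD, n = 4, adjusted p = 0.0231), and the transcription factor Irf5 (266 ± 23.96 and 132 ± 9.39 CPM, adjusted p = 4.33e-05). Nos2 lay in the same direction as this list.

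Most called genes of a list of alternative activation lay opposite to Mrc1 and Retnla. This list held interleukin 4 genes and others often listed with them, such as Tgfb1 and Il10. Of 19 tested, 8 had more in the liver and 2 had more in the peritoneum by the test, with a median of 0.47. The 20 genes of this list summed to between 5677 and 7531 CPM in the liver stroma and to between 3829 and 5226 CPM in the peritoneal stroma, without overlap. The largest of them in the liver stroma were Tgm2 (2212 and 1061 CPM) and Tgfb1 (908 and 551 CPM). Tgfb1 was also at 486 CPM in liver tumour cells. The chemokine Ccl24 (596 and 213 CPM, log2 fold change 1.44, adjusted p = 0.00256) and the lectin Cd209a (26.2 and 10.5 CPM, 1.28, adjusted p = 0.0147) were higher in the liver. The haemoglobin scavenger receptor Cd163 (43.8 ± 12.4 and 218 ± 205 CPM, -2.36, adjusted p = 0.00866) and the chemokine Ccl8 (4.04 ± 1.83 and 47.3 ± 57.0 CPM, -3.57, adjusted p = 0.00789) were higher in the peritoneum.

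Of 13 genes of resident and Folr2-type macrophages tested, 5 were called higher in the peritoneum and 1 in the liver, with a median of -0.67. Gas6, a ligand of Mertk and Axl (40.4 ± 14.5 and 202 ± 111 CPM, SD, n = 4, -2.37, adjusted p = 0.000970), was higher in the peritoneum. So was Cbr2 (3.33 ± 1.37 and 58.9 ± 67.8 CPM, -4.19, adjusted p = 0.00190). The phosphatidylserine receptor Timd4 (23.7 and 6.84 CPM, 1.75, adjusted p = 0.00218) was higher in the liver. Without the peritoneal library of mouse 1 the counts were the same but the median was -0.076. The Kupffer cell genes went to the liver in 5 of 6, with Cd5l at 122 CPM in the liver and 3.93 CPM in the peritoneum.

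The lipid and lysosome genes had no common direction. Of 20 tested, 3 were called with more in the liver and 2 with more in the peritoneum, with a median of 0.000506. The galectin Lgals3 (579 and 344 CPM, 0.71, adjusted p = 0.00539) and the elastase Mmp12 (1122 and 679 CPM, 0.68, adjusted p = 0.0185) were higher in the liver. The tetraspanin Cd63 (153 and 354 CPM, -1.26, adjusted p = 3.74e-05) and the protease Ctsl (544 and 705 CPM, -0.42, adjusted p = 0.0402) were higher in the peritoneum. Tumour cells also held much Lgals3 (323 CPM in the liver), Cd63 (374 CPM) and Ctsl (730.2 CPM), and little Mmp12 (3.55 CPM).

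The signals and partners of the 10 genes were read in the same way. Interleukin 4 averaged 0.863 and 0.443 CPM and interleukin 13 averaged 0.591 and 0.623 CPM in liver and peritoneal stroma, and neither gene (Il4, Il13) was called. Interferon gamma (Ifng) was too low to be tested, at 0.620 and 0.0815 CPM. Of the 7 cytokine genes tested, 3 were called, all higher in the peritoneum, namely Csf1 (209 and 336 CPM), which sustains macrophages, Il33 (145 and 254 CPM), an alarmin, and Il34 (4.47 and 6.82 CPM), the other ligand of Csf1r. Il33 and Il34 were also counted in liver tumour cells, at 427 and 23.0 CPM. Tyrobp, the adaptor through which Trem2 signals, was higher in the liver (414 and 275 CPM, log2 fold change 0.54, adjusted p = 0.0101), as was the kinase Syk (595 and 344 CPM, 0.74, adjusted p = 0.00131), in the opposite direction to Trem2. Of 20 partner and receptor genes, 7 were higher in the liver, 2 in the peritoneum, and the median was 0.32. Among receptors of Spp1, Itga4 was higher in the liver (446 and 195 CPM, 1.15), Itgb1 (729 and 911 CPM, -0.37) and Itgb5 (233 and 308 CPM, -0.45) were higher in the peritoneum, and Cd44 was higher in the liver (843 and 647 CPM, 0.33).

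Regulators and relatives were called in both directions. Of 18 transcription regulators, 9 were higher in the liver, among them the lipid sensor Nr1h3 (21.9 and 10.9 CPM, 0.96) and Pparg (15.0 and 7.74 CPM, 0.91), and 2 in the peritoneum, Klf4 (493 and 885 CPM, -0.89) and Mitf (32.2 and 41.0 CPM, -0.39), with a median of 0.39. Of 12 genes of arginine use, 4 were higher in the liver, among them the second arginase Arg2 (177 and 101 CPM, 0.76), and 2 in the peritoneum, Oat (90.3 and 153 CPM, -0.81) and Srm (34.7 and 49.7 CPM, -0.57), with a median of 0.28, near the 0.27 of the macrophage core genes. Of 13 relatives of Fabp5, Retnla, Mrc1, Folr2 and Trem2, 6 were higher in the liver, among them Fabp7 (3.03 and 0.692 CPM, 2.09), and 1 in the peritoneum, Mrc2 (30.2 and 345 CPM, -3.56), a collagen receptor also made by fibroblasts, with a median of 0.58.

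**Figure D5:**
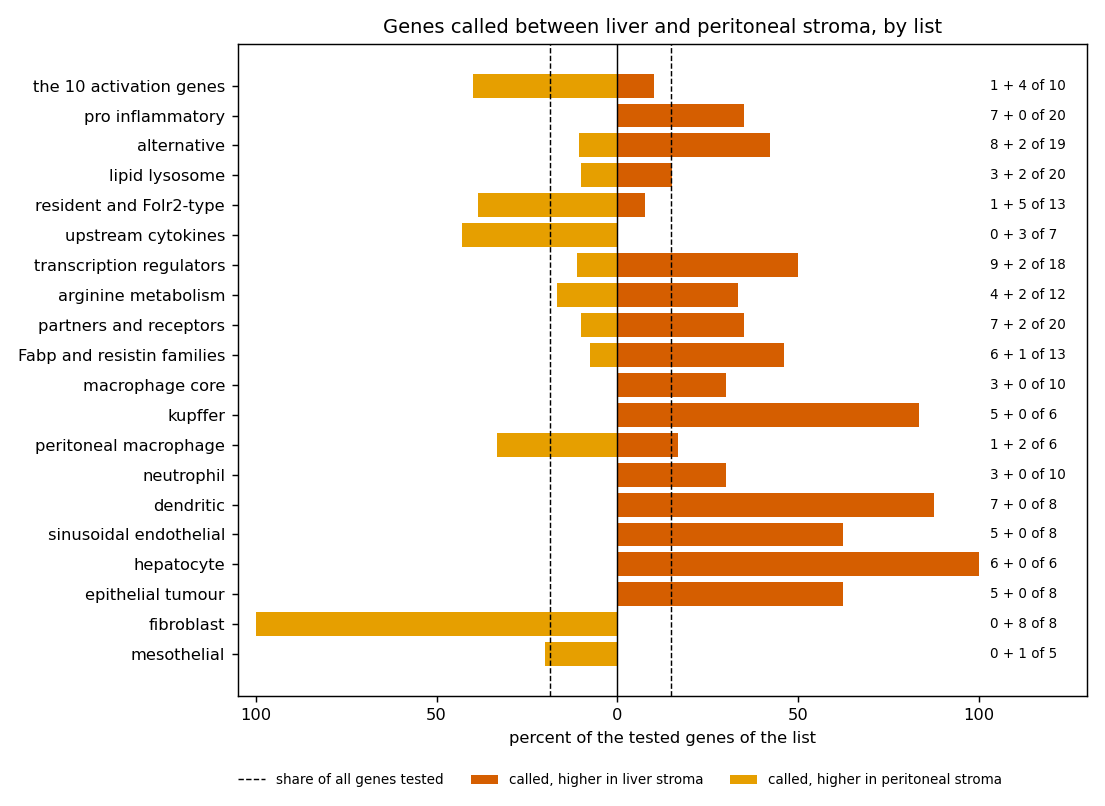
Percent of the tested genes of each list that were called between liver and peritoneal stroma, to the right when higher in the liver and to the left when higher in the peritoneum, with the numbers at the side and dashed lines at the share of all genes tested (14.9% and 18.5%). All 8 fibroblast genes were higher in the peritoneum, and 7 of 20 pro-inflammatory genes were higher in the liver.

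Markers of other host cells differed between the sites as well. Dendritic cell genes were higher in the liver in 7 of 8, sinusoidal endothelial genes in 5 of 8 and the tested hepatocyte genes in 6 of 6, with albumin (Alb) at 55.8 and 0.00866 CPM. Neutrophil genes were called higher in the liver in 3 of 10, and in 10 of 10 without the peritoneal library of mouse 1. Of 6 peritoneal macrophage genes 2 were higher in the peritoneum and 1 in the liver, and of 5 mesothelial genes 1 was higher in the peritoneum. None of the 6 adipocyte genes had enough counts. The part of these cell types in the differences of the 10 genes was not tested.

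The genes whose level was most like that of each of the 10 over the 16 sorted libraries were found by Pearson's r of log2(CPM + 1), given as a description, because the libraries fall into stroma and tumour cells and share 4 mice. Apoe was closest to the complement genes C1qa, C1qb and C1qc (r = 0.999 each), Arg1 to Mmp12, Il1b and Il1a (r = 0.997 each), and Nos2 to Ocstamp, Cd274 and Il23a (r = 0.991, 0.9899 and 0.9898). Trem2 was closest to Hal, Pf4 and Cacna1d (r = 0.996, 0.995 and 0.994), Gpnmb to Nxpe5, Pmp22 and Rnase4 (r = 0.995, 0.989 and 0.989), and Folr2 to Cd163, Ednrb and Tmem8 (r = 0.986, 0.984 and 0.984). Retnla was closest to Ccn3, Abca8a and Lrrn4cl (r = 0.988, 0.987 and 0.979), none of which is on the macrophage lists. The 3 genes also found in tumour cells had lower values, with Mrc1 closest to Snx2 (r = 0.970), Fabp5 to Lta4h (r = 0.945) and Spp1 to Ak4 (r = 0.852).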

How the data were processed

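The deposited table held raw read counts per gene for 24984 genes in 25 libraries, unnormalised. According to the study's methods, the authors prepared poly(A) libraries and aligned reads to mm9 with TopHat2, whereas per the labels the processing notes name Bowtie 0.12.2, FastQC and the builds mm8 and mm10. The counting tool, the annotation and the use of strand are not given in the sources used here. Positions of genes are from an mm9 annotation (GENCODE vM1) and promoter windows from RefSeq on GRCm38.p6.

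Total counts were 20818989 to 51241336 per library, and a level of 3 counts, the limit that a count of 0 allows, lay between 0.0576 and 0.141 CPM. Intervals and limits cover counting error only. CPM was computed with TMM factors over all libraries. Differences were tested with edgeR 4.0.16 (R 4.3.3), by the quasi-likelihood test on the 2 groups compared, after filterByExpr with a minimum count of 10 and TMM scaling, with p-values adjusted by the Benjamini-Hochberg method across every gene in the test and a threshold of 0.05. Every adjusted p is from this test unless another tool is named. The difference between site effects was an interaction term over the 16 sorted libraries. The fits were tested on simulated counts.

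The 10 genes and all lists were chosen with earlier results of these data known. Named genes of a list were the 2 called genes with the largest fold change in each direction, or some of these. Upstream cytokines, partners and receptors, and genes that show what a list held, could be named besides. Alternatives were DESeq2 1.42.0, other scalings, no filter, the study's thresholds, all libraries in 1 fit, the sequencing lane, the mouse as a block and leaving out each library. 3 alternatives were chosen after seeing the data, namely subtracting the tumour-cell share, leaving out both peritoneal libraries of mouse 1, and the list counts without its stromal library. Same-numbered sorted libraries came from the same mouse, so the mouse pairs them. Their deviations from the group means correlated by 0.184 on average between the sites in the stroma and by -0.040 in tumour cells. The study's methods describe the cultures and the sorted tumour cell samples as biologically independent.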

Additional observations from a re-analysis of the deposited data

Results flagged for a closer look

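Of 40 groups of 4 libraries checked, 9 held a library whose gap to the nearest other exceeded Dixon's critical value at the 95% level, where chance gives about 1 group in 20. 6 of the 9 were the peritoneal tumour cell library of mouse 1, with Nos2 at 0.936 CPM (others up to 0.136), Arg1 at 6.99 CPM (others up to 1.32), Retnla at 1.998 CPM (others up to 0.190), Trem2 at 2.31 CPM (others up to 0.462), Apoe at 218 CPM (others up to 35.6) and Folr2 at 4.78 CPM (others up to 0.499). The same library held 200.7 CPM of macrophage core genes and 1523 CPM of fibroblast genes, where the others held up to 34.8 and 339 CPM. The part of these in its values was not tested.

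In the peritoneal stroma, Nos2 was at 72.9 CPM in mouse 4 and between 13.1 and 21.6 CPM in the other mice, and Folr2 was at 95.5 CPM in mouse 1 and between 15.8 and 28.3 CPM in the others. In liver tumour cells, Trem2 was at 0.303 CPM in mouse 3 and between 0.0565 and 0.0960 CPM in the others.

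The site effect differed between stroma and tumour cells by -0.82 on the log2 scale for Mrc1 and by 0.97 for Fabp5, by the interaction test over all sorted libraries.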

How the results depend on the processing

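Over 33 single-gene results and 502 alternative values, none reversed its direction, 433 stayed on the same side of the threshold, 53 lost a call and 16 gained one. The study's thresholds were applied to the main fits, so that alternative could not reverse a direction. Outside the stromal site comparison only genes called in the main fit were followed, so a reversal of other genes would not be seen. Of the 10 genes, 5 were called between the sites in stroma, against 3 under the study's thresholds, 2 with all 25 libraries in 1 fit, and 2 to 6 when 1 library was left out (2 without the liver library of mouse 1). In tumour cells the count was 0, against 1 under the study's thresholds, 1 with all 25 libraries, and 0 to 2 on leaving out 1 library. For RasHIGH against RasLOW it was 0, against 2 by DESeq2, 1 under the study's thresholds and 2 with all 25 libraries. On leaving out 1 library it was 0 to 2 for RasLOW and 1 to 2 for RasHIGH against BMEL WT. The interaction gave 2, 0 under the study's thresholds, and 1 to 2 on leaving out 1 library. The causes were not tested.

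With the mouse as a block, Nos2 and Spp1 were called as well in the stroma, where calls over all genes went from 4926 to 5615. No other call among the 10 genes changed in the sorted cells. Culture numbers are only shared numbers (mean correlation -0.13 for RasLOW against BMEL WT), and with them as a block RasLOW against BMEL WT gave 0 calls, with Mrc1 at 1.55 (adjusted p = 0.0680) and Arg1 at -3.42 (adjusted p = 0.0518). Over all genes, counts that moved by over 1.5 times were 419 for tumour cells (1146 by DESeq2, 195 with the lane, 102 with the block, and 41 without the liver library of mouse 2 to 884 without the peritoneal library of mouse 1 on leaving out 1 library), 734 for RasLOW (1622 by DESeq2, 2440 with all libraries, 295 with the block, 148 to 2340 on leaving out 1 library), 2789 for RasHIGH (1190 under the study's thresholds, 4347 with all libraries, down to 1517 on leaving out 1 library), 9 for RasHIGH against RasLOW (419 by DESeq2, 917 with all libraries, 253 under the study's thresholds, 77 with no filter, 0 with the block, 0 to 16 on leaving out 1 library), 11376 and 11168 for stroma against tumour cells in liver and peritoneum (6437 and 6377 under the study's thresholds), and 4926 in stroma (2107 under the study's thresholds, 2803 scaled to macrophage core genes). Under the tumour-share subtraction 29.0% of stroma calls were higher in the liver, against 44.7%.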
